A study of Mus musculus with 4 samples.

Results

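Genes of axon guidance and neuronal adhesion were followed in skeletal cells of the mouse spine: Slit2, Slit3, Robo1, Robo2, Unc5c, Dab1, Tenm2, Nlgn1, Dscam and Trpm3. These 10 genes were found by symbol in all 4 libraries, among the 32286 features that each library lists. They were picked for how their own counts differed between groups of these cells, so their levels, folds and counts of calls are given as description, with no test. Tests were run only on other genes, from the same families and from the semaphorin and ephrin systems.

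The cells were tdTom+ cells sorted from vertebrae of the lower thoracic and upper lumbar spine, after cells stained for CD45, CD11b or CD31 and dead cells had been discarded, and were read with 10x 3′ single-cell chemistry. Mice labelled control were Prss56Cre/+;R26tdTom/tdTom;Nf1+/+ and mice labelled mutant were Prss56Cre/Cre;R26tdTom/tdTom;Nf1fl/fl, each at 3 months and at 12-16 months of age, with 1 library per condition and the number of mice in a library not stated. All 4 libraries share the tdTom reporter, and Cre runs from Prss56, a gene that marks boundary cap cells at the spinal nerve roots, so only descendants of Prss56-expressing cells carry the label and, in mutants, the recombined Nf1. Control mice carry 1 Cre allele and mutant mice 2 Cre alleles, so the number of Cre alleles and the Nf1 genotype cannot be told apart.

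Slit proteins are secreted cues that steer growing axons and migrating cells through Robo receptors on the cell surface, and Unc5c is a receptor for the netrin cues. Dab1 is the adaptor that carries the Reelin signal from the receptors Vldlr and Lrp8 into a cell, while Tenm2 (a teneurin), Nlgn1 (a neuroligin) and Dscam (a large immunoglobulin-type protein) hold cells together or sort them at contacts. Trpm3 is a cation channel of sensory neurons opened by heat and by steroids. In the growing skeleton, cartilage cells that turn on Runx2 enter a programme of enlargement marked by Col10a1, and Runx2 is also the master gene of osteoblasts.

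The 4 libraries held from 163 to 922 barcodes, and no barcode was shared between libraries. A cell was kept above 750 unique molecular identifiers (UMIs) and above 500 genes with mitochondrial counts under 7%, which left from 135 to 717 cells per library. The 1757 passing cells carried from 2154537 to 9429264 UMIs per library. Levels are in CPM, a scale on which each count is divided by the UMI total of its pool. Nf1 itself stood at 131 CPM in the control and 149.7 CPM in the mutant at 3 months, and at 147 and 125 CPM at 12-16 months. At 3 months the library labelled mutant thus did not have less Nf1 than the control, and since it is not given whether the 3′ tags lie inside the deleted stretch, these values check no label. The conditions are named below as the labels give them.

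Cells were grouped by counts of 4 genes that are not among the 10. Runx2-positive cartilage held at least 1 UMI of Sox9, 3 of Acan, 10 of Col2a1 and 1 of Runx2, and took in 77, 160, 19 and 65 cells in the 3-month pair and then the 12-16-month pair, with the control first in each, which is the order of all series of 4 values below. Runx2-zero cartilage met the same Sox9 and Acan conditions without any Runx2 UMI and took in 468, 184, 65 and 176 cells. Bone/stroma held at most 2 UMIs of Acan and at least 1 of Runx2 and took in 45, 39, 27 and 83 cells. Runx2-positive cells were deeper, with a median of 19660 UMIs against 10562 in Runx2-zero cartilage and 11719 in bone/stroma.

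Marker lists were read in the gates to check their names, and of the lists given below only the osteoblast list holds a gate gene, Runx2. A chondrocyte list was also read, but it holds the gate genes Sox9, Acan and Col2a1 and is no independent check. A list of 5 hypertrophy genes summed to between 1312 and 4833 CPM in Runx2-positive cartilage and to between 95.3 and 259 CPM in Runx2-zero cartilage. Col10a1 alone did not follow this sum in every library. It was at 1410, 546, 5.42 and 1839 CPM in Runx2-positive cartilage and at 194, 49.1, 70.3 and 138 CPM in Runx2-zero cartilage. In the 12-16-month control it was thus lower in the Runx2-positive gate. Cells with Col10a1 made up 18.2%, 13.1%, 5.26% and 21.5% of the first gate and 19.02%, 8.7%, 20% and 23.9% of the second. Only in the 3-month mutant was the share larger in the Runx2-positive gate. A list of 8 osteoblast genes summed to between 8766 and 148139.5 CPM in bone/stroma and to at most 4177 CPM in the cartilage gates, and a list of 5 marrow stroma genes to between 3011 and 10671 CPM in bone/stroma and to at most 291 CPM in the cartilage gates. Lists of 8 neuron and 8 Schwann cell or glia genes stayed low. In the 3 gates at most 5 of 8 genes of either list were detected in a library, the neuron list summed to between 0 and 14.2 CPM and the Schwann cell and glia list to between 2.53 and 76.6 CPM, and Sox10, the factor that defines the glial lineage, had 1 UMI in all 12 pools of gate and library.

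The bone/stroma pool of the 3-month library labelled mutant stood apart, because 23 of its 39 cells held Ptprc (CD45), the leukocyte marker that the sort was meant to remove. A list of 6 leukocyte genes summed to 1711 CPM in that pool, against 7.60, 181 and 279 CPM in the bone/stroma pools of the 3-month control, 12-16-month control and 12-16-month mutant. The levels, folds and pooled shares of the 10 genes in bone/stroma are therefore also given for cleaned bone/stroma. Cells with Ptprc, with the endothelial gene Cdh5, or with 5 or more UMIs of the smooth muscle gene Acta2 were taken out for it. This left 42, 15, 25 and 73 cells. For the other genes that were tested, only counts of calls are also given in this way. Their folds, the medians of long genes and the correlations over pools use the uncleaned cells.

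All 10 genes are long. On GRCm38 they span from 324.6 kb (Slit2, chromosome 5 from 47983138 to 48307733) to 1229.3 kb (Tenm2, chromosome 11 from 36006656 to 37235964), which puts them between percentiles 97.1 and 99.8 of the spans of annotated genes detected here. Unc5c lies on chromosome 3 from 141465216 to 141834924, Dab1 on chromosome 4 from 103619359 to 104744844, and Trpm3 on chromosome 19 from 22139046 to 22995410. Slit3 lies on the same chromosome as Tenm2, from 35121224 to 35708507 on the opposite strand.

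Because 4 of the genes sit high in cells gated on Runx2, the RefSeq promoter windows of all 10 genes (GRCm38.p6) were searched for the core of the motif that RUNX proteins bind, TGTGGT, on both strands in the 250 bases before each start. The core was found in 3 of the 15 windows, those of Unc5c, Dab1 and Trpm3, and in 4614 of the 32851 windows of all genes. The core of the SOX motif, AACAAT, was found in 0 of the 15 windows and in 9.42% of all windows. A match is only a match of letters, not a site in use. The matches of Unc5c and Trpm3 lie in annotated exons, so 30 bases around the match are shown. The bases of Dab1 upstream of its first exon follow. Those of Slit2 come last, as a gene of the other group and without a match. Capitals mark the RUNX core, which reads ACCACA where it lies on the reverse strand.
Unc5c, chr3:141465405-141465434, plus strand: agctgcgggagcTGTGGTggtggccgcgct
Trpm3, chr19:22448030-22448059, plus strand: cctctgactccgACCACAggctgttttgtg
Dab1, chr4:103619250-103619358, plus strand: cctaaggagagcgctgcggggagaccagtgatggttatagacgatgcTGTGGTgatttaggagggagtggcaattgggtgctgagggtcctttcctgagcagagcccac
Slit2, chr5:47982905-47983137, plus strand: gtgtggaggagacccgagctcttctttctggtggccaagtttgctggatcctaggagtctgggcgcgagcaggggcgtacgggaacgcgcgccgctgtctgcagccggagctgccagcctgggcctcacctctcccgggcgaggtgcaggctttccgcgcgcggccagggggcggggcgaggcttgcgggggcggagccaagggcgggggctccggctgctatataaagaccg

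The 10 genes fell into 3 patterns across the gates. Unc5c, Dab1, Tenm2 and Trpm3 were at least 2-fold higher in Runx2-positive than in Runx2-zero cartilage in each of the 4 libraries, beside a background of 4.01% of the 13750 genes with enough counts. The same 4 genes were at least 2-fold higher in Runx2-positive cartilage than in bone/stroma in every library, beside 4.75% of genes, and beside 3.94% with cleaned bone/stroma. Slit2, Slit3, Robo2 and Nlgn1 were at least 2-fold higher in bone/stroma than in Runx2-zero cartilage in every library, beside 7% of genes, and Robo1 joined them in cleaned bone/stroma, beside 8.03%. These 4 genes were also at least 2-fold higher in bone/stroma than in Runx2-positive cartilage, beside 5.04% of genes and 5.97% with cleaned bone/stroma. Dscam was at least 2-fold higher in Runx2-zero cartilage than in Runx2-positive cartilage, beside 2.09% of genes, and than in bone/stroma, beside 5.29% of genes and 4.19% with cleaned bone/stroma. Because the genes were picked on these contrasts, nothing is read from these counts. Leaving out the 12-16-month control raised the first count from 4 to 6 (Robo1 and Robo2 added), and leaving out the 3-month mutant raised the count for bone/stroma over Runx2-zero cartilage from 4 to 7 (Unc5c, Robo1 and Trpm3 added).

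**Figure D1:**
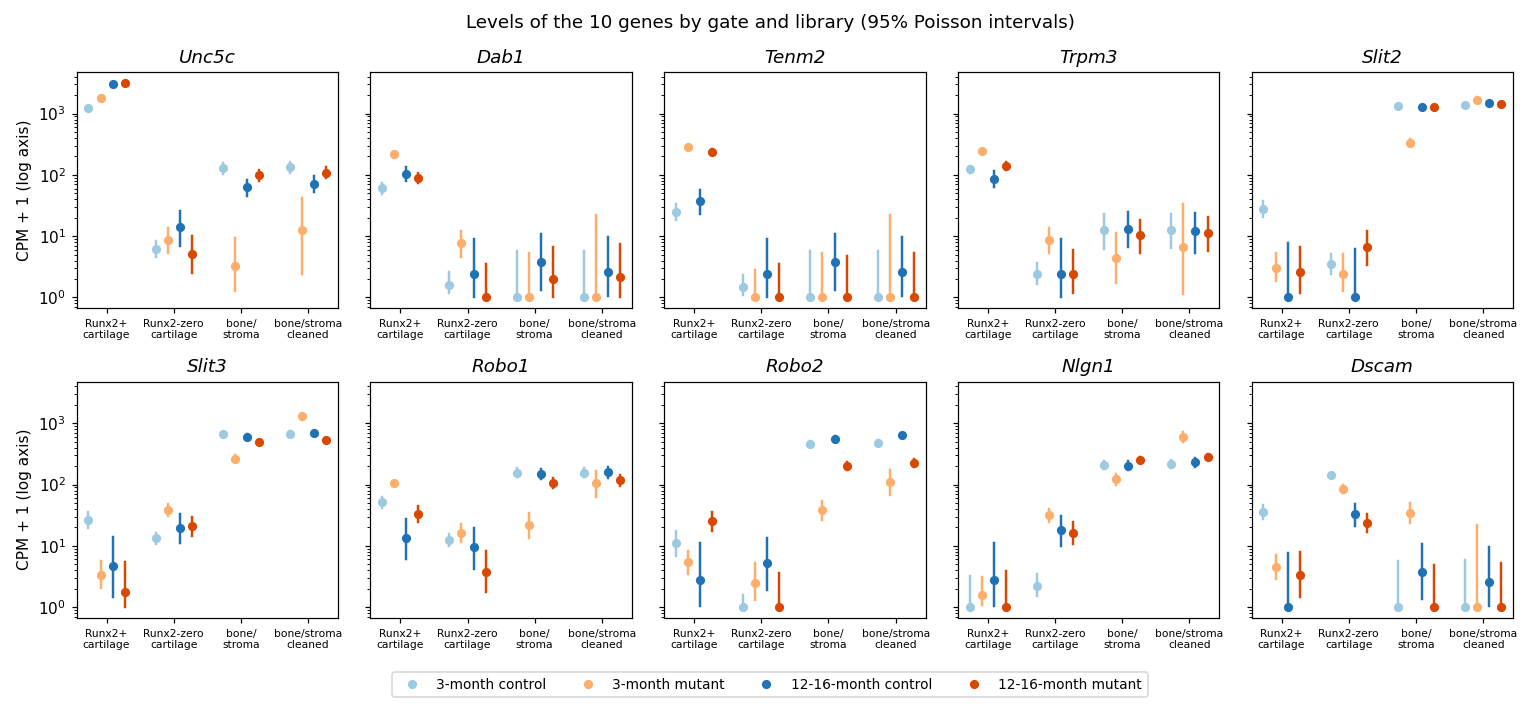
Level of each of the 10 genes as CPM + 1 on a log axis, by gate (horizontal) and library (colour), with points for the sum of a pool and lines for 95% Poisson intervals. Unc5c lies between 1219.6 and 3111 CPM in Runx2-positive cartilage and at or under 12.9 CPM in Runx2-zero cartilage, and Slit2 lies between 1363 and 1662 CPM in cleaned bone/stroma.

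Unc5c, the netrin receptor, marked the Runx2-positive cartilage cells. Its level there was 1219.6 CPM in the 3-month control (95% exact Poisson interval 1167 to 1274), 1772 in the 3-month mutant (1727 to 1817), 3013 in the 12-16-month control (2869.8 to 3161) and 3111 in the 12-16-month mutant (3014 to 3209.5). All such intervals here cover counting error only, and levels are compared within a gene. In Runx2-zero cartilage it stood at 5.15, 7.63, 12.9 and 4.17 CPM, so the lowest Runx2-positive pool lay far above the highest Runx2-zero pool. The fold between the cartilage gates was 237 (168 to 345), 232 (143 to 407), 233 (123 to 511) and 746 (343 to 2035) in the 4 libraries. Bone/stroma stood at 128, 2.32, 61.7 and 97.0 CPM, below Runx2-zero cartilage in the 3-month mutant and between the cartilage gates in the other 3 libraries. The cleaned levels were 131, 11.5, 70.4 and 108 CPM, and in the 3-month mutant the fold of 1.51 over Runx2-zero cartilage, on 2 UMIs, had an interval from 0.168 to 6.41. The counts were not those of a few cells in most pools, since the cell with the most Unc5c UMIs held 13.2%, 6.4%, 22.6% and 6.9% of the Unc5c UMIs of the 4 Runx2-positive pools.

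Dab1, the Reelin adaptor, followed the same gates at lower counts. It was at 59.5 CPM (48.3 to 72.4), 217 (201 to 233), 103 (78.0 to 133) and 88.6 CPM (72.9 to 107) in Runx2-positive cartilage. In Runx2-zero cartilage there were 4, 14, 1 and 0 Dab1 UMIs, and in bone/stroma 0, 0, 2 and 1 (0, 0, 1 and 1 when cleaned). The fold over Runx2-zero cartilage was 95.2 (36.0 to 356), 32.5 (19.2 to 59.7) and 71.8 (12.4 to 2886) in the first 3 libraries, and at least 42.5 in the 12-16-month mutant, where the bound rests on 3 counts in the pool at 0. The partners of Dab1 gave no call between the cartilage gates. Reln, the ligand, had at most 14 UMIs in any pool, and the receptors Vldlr and Lrp8 did not pass the test (edgeR quasi-likelihood with Benjamini-Hochberg adjustment, log2 fold changes of 0.47 with adjusted p = 0.626 and −1.39 with adjusted p = 0.157).

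Tenm2, the teneurin, had at most 3 UMIs in each pool of Runx2-zero cartilage and bone/stroma. Its level in Runx2-positive cartilage was 24.0 CPM (17.2 to 32.7) in the 3-month control and 280.5 (263 to 299) in the 3-month mutant. In the 12-16-month libraries it was 36.1 (22.1 to 55.8) in the control and 239.7 (213 to 268) in the mutant, so both pools labelled mutant stood above both pools labelled control. There were 3, 0, 1 and 0 Tenm2 UMIs in Runx2-zero cartilage and 0, 0, 2 and 0 in bone/stroma (0, 0, 1 and 0 when cleaned). The fold over Runx2-zero cartilage was 51.3 (16.3 to 259) and 25.2 (4.03 to 1044.5) in the libraries labelled control, and at least 196 and at least 115 in those labelled mutant.

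Trpm3, the channel gene, was at 123 CPM (107 to 141), 245 (229 to 262.5), 84.9 (62.4 to 113) and 141 CPM (121 to 163) in Runx2-positive cartilage. It had 9, 16, 1 and 2 UMIs in Runx2-zero cartilage and 9, 3, 9 and 9 UMIs in bone/stroma (9, 1, 7 and 9 when cleaned). The fold between the cartilage gates was 87.6 (45.3 to 194), 32.2 (19.7 to 56.5), 59.2 (10.1 to 2388) and 101 (27.6 to 843). Trpm3 was thus high in 1 gate of 3 in each library, with its largest level in the 3-month mutant.

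These 4 genes were often read in the same cells. Of 321 Runx2-positive cells, 36 held none of Unc5c, Dab1, Tenm2 and Trpm3, 45 held 1, 62 held 2, 108 held 3 and 70 held all 4. By library, cells with none were 24 of 77, 2 of 160, 3 of 19 and 7 of 65. Cells with all 4 were 5, 45, 1 and 19, so most came from the libraries labelled mutant. It was not tested whether this overlap exceeds that of unrelated genes. Of 893 Runx2-zero cells, 840 held none and 0 held 3 or more, and of 194 bone/stroma cells 139 held none and 1 held 3 (103 and 0 of 155 cleaned cells). Deeper cells have more chance to show a UMI, so each cell was also thinned to 3000 UMIs and cells below that depth were left out. Unc5c was then read in 79.0% of 319 Runx2-positive cells (exact binomial interval 74.1 to 83.3), 1.04% of 864 Runx2-zero cells and 9.39% of 181 bone/stroma cells (11.8% of 144 cleaned cells), against 84.7%, 3.02% and 21.1% without thinning. By library the thinned share in Runx2-positive cells was 61.8% (49.98 to 72.8), 85.0% (78.5 to 90.1), 72.2% (46.5 to 90.3) and 86.2% (75.3 to 93.5).

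Thinned shares of the other 3 genes in Runx2-positive cells were 30.7% for Tenm2, 27.0% for Dab1 and 26.6% for Trpm3, from 53.9%, 43.9% and 58.3% before thinning. By library the thinned shares ran from 5.56% to 44.4% for Tenm2, 16.7% to 35.6% for Dab1 and 21.5% to 31.25% for Trpm3. Among Runx2-zero cells they were 0% for Tenm2 (0 of 864, with an exact upper bound of 0.426%), 0.347% for Dab1 and 0.579% for Trpm3. Leukocytes, which should lack these genes, were read as a rough gauge of free RNA. Whether the UMIs in them come from free RNA was not tested. Of 68 such cells at 3000 UMIs, 0 held Unc5c, Dab1, Tenm2 or Trpm3, for an exact upper bound of 5.28% each. Of all 87 leukocyte-marked cells 33 also lie in the bone/stroma gate, so the sets share cells. The median depth of the 87 cells was 9174 UMIs. They numbered 13, 42, 2 and 30 by library, and those of the 3-month control had a median of 1242 UMIs. Few cells of the libraries labelled control thus entered the thinned share, which says little about free RNA in those libraries. Without thinning, Trpm3 was read in 2 of the 87 cells, Dab1 and Tenm2 in 1 each and Unc5c in 0.

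**Figure D2:**
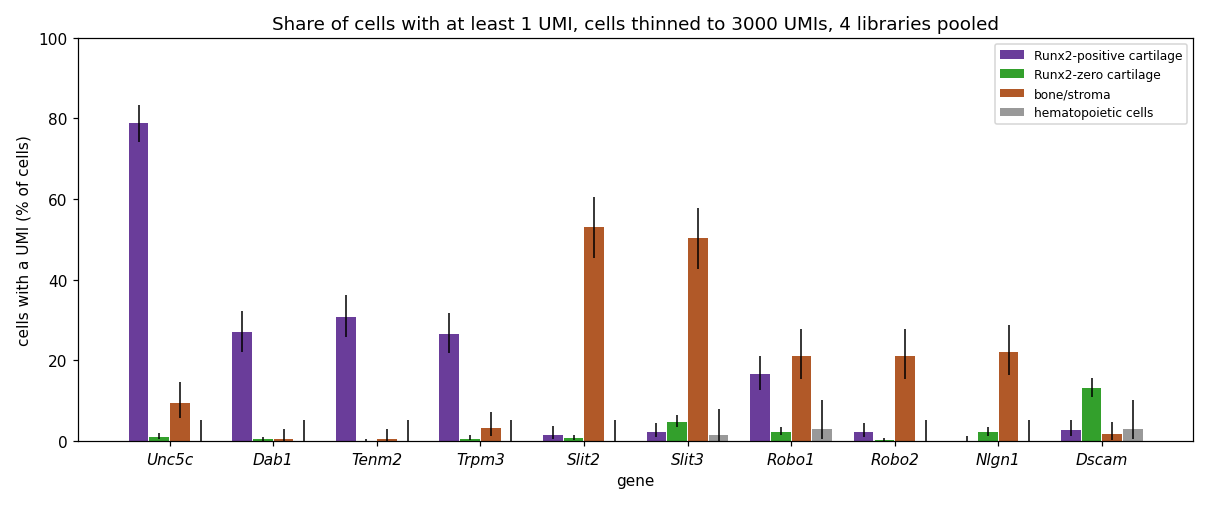
Share of cells with at least 1 UMI of each gene (percent of cells, from 0) after thinning every cell to 3000 UMIs, pooled over 4 libraries, with bars coloured by gate, the leukocyte-marked cells beside them in grey (hematopoietic cells) and 95% exact binomial intervals. Unc5c reaches 79.0% of Runx2-positive cartilage cells, Slit2 53.0% of bone/stroma cells and Dscam 13.2% of Runx2-zero cartilage cells. The intervals cover the counting of cells only and not the spread between libraries. Some leukocyte-marked cells also lie in the bone/stroma bars.

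Within Runx2-positive cartilage, the 4 genes were lower in cells with Col10a1, the collagen of hypertrophic cartilage, than in cells without it. There were 50 cells with at least 1 Col10a1 UMI (14, 21, 1 and 14 by library) and 271 without. Unc5c stood at 247 CPM with Col10a1 and 1491 without in the 3-month control, at 1080.4 and 1880.5 in the 3-month mutant, at 77.5 and 3156 in the 12-16-month control, where 1 cell made the first value, and at 1779 and 3496 in the 12-16-month mutant. Every library had the lower value in the cells with Col10a1. Pooled over libraries, the levels with and without Col10a1 were 24.7 and 170 CPM for Dab1, 61.0 and 217 CPM for Tenm2, and 63.6 and 207 CPM for Trpm3, with the lower value in the cells with Col10a1 in each library. For Trpm3 in the 12-16-month mutant the levels were 137 and 142 CPM, a difference smaller than the counting error of 39 and 139 UMIs. Col10a1 splits cells by 1 count, so some cells without a Col10a1 UMI may carry the transcript.

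**Figure D3:**
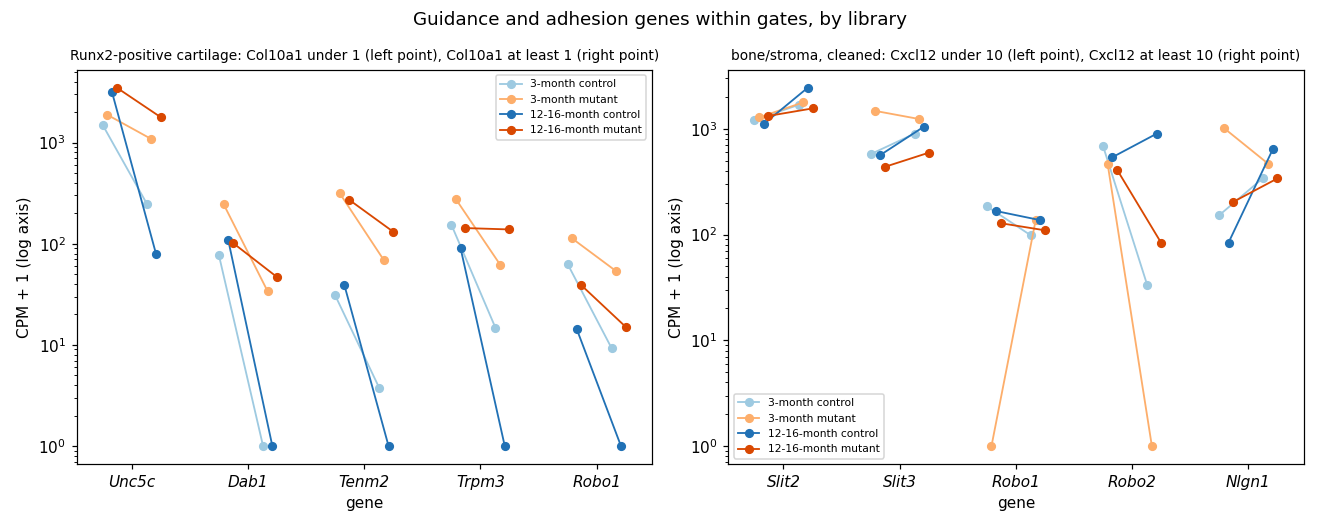
Levels as CPM + 1 on a log axis in cells under (left point of each pair) and at or above (right point) a marker threshold, by library in colour, for Col10a1 of 1 UMI in Runx2-positive cartilage and for Cxcl12 of 10 UMIs in cleaned bone/stroma. The lines of Unc5c, Dab1, Tenm2 and Trpm3 fall from left to right in all 4 libraries. In cleaned bone/stroma 1 line of Robo2 (12-16-month control) and 1 each of Slit3, Robo1 and Nlgn1 (3-month mutant) run against the other 3. A single cell holds most UMIs of the higher point in these, except for Robo1, where 4 cells with 0 UMIs make the lower point.

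The edge of the Runx2-positive gate was inspected with cartilage cells that held Runx2 but fewer than 10 Col2a1 UMIs, 17, 33, 5 and 17 cells. There Unc5c stood at 46.9, 646, 0 and 397 CPM, Dab1 at 104, 457, 0 and 37.8 CPM and Trpm3 at 36.5, 568, 0 and 50.5 CPM, while Tenm2 was read only in the 3-month mutant, at 97.3 CPM. The pool of 5 cells of the 12-16-month control held no UMI of any of the 4 genes. In the 3-month mutant Dab1 and Trpm3 were thus higher in these cells than in the Runx2-positive gate. So was Dab1 in the 3-month control. All other values of the 4 genes were lower than in that gate.

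Slit2, a secreted Slit cue, was the counterpart in bone/stroma. Its level there was 1328 CPM (1248.5 to 1410.5) in the 3-month control, 336 (299 to 377) in the 3-month mutant, 1286.5 (1205.5 to 1372) in the 12-16-month control and 1305.5 (1234.5 to 1379) in the 12-16-month mutant. The low value belongs to the pool with leukocytes. In cleaned bone/stroma the levels were 1363, 1662, 1467 and 1459.7 CPM, and the 3-month mutant was the highest of the 4. Slit2 had 16, 3, 0 and 8 UMIs in Runx2-zero cartilage and 45, 7, 0 and 2 in Runx2-positive cartilage. Bone/stroma was above Runx2-zero cartilage 531-fold (326 to 933), 235-fold (79.7 to 1148), at least 299-fold and 235-fold (119 to 545) in the 4 libraries. With cleaned bone/stroma these were 546-fold (334 to 958), 1162-fold (394 to 5669), at least 341-fold and 263-fold (133 to 610). In both libraries labelled mutant all Slit2 UMIs of Runx2-zero cartilage, 3 and 8, came from 1 cell. Single cells weighed on these sums, since 1 cell held 33.4% of the Slit2 UMIs in the 3-month mutant and 26.3% in the 12-16-month control.

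Slit3, the second Slit cue measured, was at 669 CPM (613 to 728), 262 (229 to 299), 606 (551 to 665) and 496 CPM (453 to 543) in bone/stroma, and at 680.4, 1294, 691 and 526 CPM in the cleaned cells. In Runx2-zero cartilage it was read in 107 of 893 cells, against 12 for Slit2, at 12.2 CPM (9.63 to 15.2), 37.2 (29.4 to 46.4), 18.6 (9.93 to 31.9) and 20.1 CPM (13.5 to 28.9). Bone/stroma stood 54.9-fold (43.2 to 70.6), 7.05-fold (5.43 to 9.25), 32.5-fold (18.8 to 61.5) and 24.6-fold (16.9 to 37.2) above Runx2-zero cartilage. With cleaned bone/stroma the folds were 55.9 (44.0 to 71.8), 34.8 (26.8 to 45.6), 37.1 (21.5 to 70.2) and 26.1 (17.9 to 39.5). In the first library Slit3 was at 25.2 CPM in Runx2-positive cartilage, and the other 3 libraries held 8, 2 and 1 UMIs there. The third Slit gene, Slit1, had at most 2 UMIs in any pool.

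Robo2, a Slit receptor, was read in bone/stroma at 464 CPM (417 to 514), 37.1 (25.4 to 52.4), 555 (503 to 612) and 199 CPM (172 to 229). The cleaned levels were 476, 109, 633 and 223 CPM, so both pools labelled mutant were below both labelled control. These pools differ in their mix of cells. Cells with at least 10 UMIs of the marrow stroma gene Cxcl12 made up 17 of 42, 11 of 15, 10 of 25 and 49 of 73 cleaned cells. In the cells under 10 UMIs Robo2 was at 687, 460, 538 and 411 CPM, the second on 19 UMIs of 4 cells. The part of the mix in the genotype difference was not tested. Robo2 had 0, 3, 3 and 0 UMIs in Runx2-zero cartilage and 17, 15, 1 and 31 in Runx2-positive cartilage. Robo2 rested on few cells, because 1 cell held 38.5%, 40.6%, 31.9% and 20.2% of its UMIs in the 4 bone/stroma pools, and only 19, 3, 14 and 15 cells held any.

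Robo1, the other Slit receptor among the 10, was spread over 2 gates. In bone/stroma it was at 156 CPM (129.5 to 186), 20.9 (12.4 to 33), 147 (120.3 to 177) and 106 CPM (86.8 to 129), and in the cleaned cells at 156, 103, 158 and 117 CPM. In Runx2-positive cartilage it was at 50.5 CPM (40.3 to 62.5), 104 (93.1 to 115), 12.7 (5.09 to 26.1) and 32.4 CPM (23.3 to 44.0), and in Runx2-zero cartilage at 11.4, 15.2, 8.61 and 2.78 CPM. Runx2-positive cartilage stood above Runx2-zero cartilage 4.43-fold (3.20 to 6.14), 6.80-fold (4.73 to 10.1) and 11.7-fold (4.23 to 44.9) in the 3-month control, the 3-month mutant and the 12-16-month mutant. In the 12-16-month control the fold was 1.47 with an interval from 0.423 to 5.29, on 7 UMIs of which 5 came from 1 cell, so no difference was detectable there.

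Nlgn1, the neuroligin, was at 208 CPM (177 to 242), 121 (98.6 to 146), 202 (170 to 237) and 251 CPM (220 to 284) in bone/stroma, and at 213, 598, 229.9 and 280.4 CPM in the cleaned cells. In Runx2-positive cartilage it had 0, 2, 1 and 0 UMIs. In Runx2-zero cartilage it had 8, 65, 12 and 22 UMIs, and 58.5% of the 65 in the 3-month mutant came from 1 cell. Bone/stroma stood above Runx2-zero cartilage 166-fold (82.5 to 392), 3.90-fold (2.83 to 5.395), 11.7-fold (6.51 to 23.2) and 16.4-fold (10.6 to 26.7). With cleaned bone/stroma the folds were 171 (84.7 to 402), 19.3 (14.02 to 26.7), 13.4 (7.42 to 26.4) and 18.4 (11.8 to 29.8).

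Ligand and receptor counts met in the same bone/stroma cells. Of 194 bone/stroma cells, 126 held Slit2, 133 held Slit3 and 116 held both, 97 held Robo1 or Robo2, and 93 held at least 1 Slit together with at least 1 Robo UMI. Among the 155 cleaned cells 125 held Slit2, 128 Slit3 and 115 both, 92 held Robo1 or Robo2, and 90 held at least 1 of each kind. These counts were not thinned, and deeper cells show more genes. Whether the overlap exceeds that of unrelated genes was not tested. At 3000 UMIs per cell the shares in 181 bone/stroma cells were 53.0% for Slit2 (45.5 to 60.5), 50.3% for Slit3 (42.8 to 57.8), 22.1% for Nlgn1, 21.0% for Robo1 and 21.0% for Robo2, from 64.9%, 68.6%, 30.9%, 43.3% and 26.3% before thinning. Thinned shares by library ran from 26.3% to 72%, 26.3% to 64.3%, 15.8% to 32%, 2.63% to 28% and 5.26% to 36%, in that order. In 144 cleaned cells the thinned shares were 66.7% for Slit2 (58.3 to 74.3), 61.1% for Slit3 (52.6 to 69.1), 27.8% for Nlgn1, 25% for Robo1 and 26.4% for Robo2. In the 68 leukocytes at this depth the shares of these 5 genes were between 0% and 2.94%. Slit2 was read in 0.694% of Runx2-zero and 1.57% of Runx2-positive cells, whereas Robo1 was read in 2.31% and 16.6%.

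Bone/stroma was divided further by Cxcl12, the chemokine of marrow stromal cells, at 10 UMIs, into 87 cleaned cells at or above and 68 below. Slit2 stood at 1686, 1779, 2456.5 and 1560.2 CPM in the cells rich in Cxcl12 and at 1210.3, 1283.5, 1110.2 and 1325 CPM in the others, higher with Cxcl12 in all 4 libraries. Single cells weighed on this, as 1 cell held 169 of the 417 Slit2 UMIs of the Cxcl12-rich cells in the 3-month control and 247 of 416 in the 12-16-month control. Without the cell with the most Slit2 UMIs on each side, the levels were 1078.1 and 1077.9 CPM in the first of these libraries and 1136.5 and 1231 CPM in the second. Slit2 was thus no longer clearly higher with Cxcl12 in the libraries labelled control. It stayed higher in those labelled mutant (1189.3 against 264 and 1360.4 against 1071.5 CPM), where the value of 264 rests on 8 UMIs of 3 cells. Slit3 was higher with Cxcl12 in 3 libraries (902 against 575, 1051 against 561 and 594 against 435 CPM) and not in the 3-month mutant (1236.5 against 1477), where 11 and 4 cells were compared and 1 of the 4 held 54 of their 61 Slit3 UMIs. Without the top cell of each side that library stood at 1196 against 231 CPM, the latter on 7 UMIs of 3 cells. Robo2 was lower with Cxcl12 in the 3-month control (32.3 against 687 CPM), the 3-month mutant (0 against 460.1) and the 12-16-month mutant (82.5 against 411), and higher in the 12-16-month control (898 against 538), where 129 of the 152 UMIs behind the first value lay in 1 cell. Without the top cell of each side that library stood at 155 against 462 CPM, and Robo2 was then lower with Cxcl12 in all 4 libraries. Robo1 was lower with Cxcl12 in 3 libraries, with 97.0 against 184, 136 against 166 and 109 against 127 CPM. In the 3-month mutant it was higher, with 136 against 0 CPM, on 18 UMIs and 0 UMIs. Nlgn1 was higher with Cxcl12 in 3 libraries, with 344 against 152, 638 against 82.9 and 338 against 203 CPM, and lower in the 3-month mutant, with 467 against 1017 CPM, where 41 of the 42 UMIs behind the last value lay in 1 cell. Without the top cell of each side that library stood at 219 against 33.04 CPM, the latter on 1 UMI of 3 cells. Taking 1 cell from each side weighs more on the side with fewer cells. The levels without top cells are thus description and settle no direction.

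Dscam was the member that was highest in Runx2-zero cartilage. It was at 140.1 CPM (131 to 149.5), 84.8 (72.8 to 98.2), 31.6 (19.8 to 47.8) and 22.9 CPM (15.8 to 32.2) there, so both 3-month pools lay above both 12-16-month pools. In Runx2-positive cartilage there were 58, 12, 0 and 3 UMIs, and the level in Runx2-zero cartilage was higher 4.02-fold (3.08 to 5.34), 23.9-fold (13.3 to 47.1), at least 5.82-fold and 9.66-fold (3.03 to 49.2). In the 3-month control 40 of the 58 UMIs lay in the 14 cells with Col10a1, 23 of them in 1 cell. Bone/stroma held 0, 29, 2 and 0 Dscam UMIs, and the 29 in the 3-month mutant were all in cells removed by cleaning. The thinned share in Runx2-zero cells was 17.0% (13.6 to 20.7), 14.2% (9.50 to 20.1), 5.17% (1.08 to 14.4) and 4.29% (1.74 to 8.65) by library, and 2.94% in the 68 leukocytes. In the 12-16-month libraries the share lies inside the interval of the leukocyte share (0.358 to 10.2). That leukocyte share rests on 2 cells pooled over the 4 libraries. It therefore cannot settle whether the 12-16-month shares of Runx2-zero cells exceed background. The 2-fold call of Dscam was lost over both other gates when whole cells were thinned to 5000 UMIs or kept only from 8000 to 25000 UMIs, and over bone/stroma also with the mean of CPM over cells. Without the 3-month control, Slit3 and Nlgn1 joined Dscam in the count of members higher in Runx2-zero than in Runx2-positive cartilage, which made 3 in place of 1.

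At 3 months, the mutant and control libraries were set side by side within each gate, where 1 library per condition leaves no replicate check and no test. In Runx2-positive cartilage 7 of the 9 members with at least 20 UMIs passed 2-fold in either direction, beside 17.2% of genes. Tenm2 was 11.7-fold higher in the library labelled mutant (8.51 to 16.4), Dab1 3.64-fold (2.95 to 4.54) and Robo1 2.05-fold (1.61 to 2.64), while Unc5c was 1.45-fold (1.38 to 1.53) and Trpm3 1.99-fold (1.71 to 2.33) higher and did not pass 2-fold. Slit2 was 13.04-fold lower (5.84 to 34.3), Slit3 10.7-fold (4.94 to 26.3), Dscam 9.81-fold (5.21 to 20.1) and Robo2 2.30-fold lower (1.08 to 4.94), all on at most 58 UMIs in the control pool. Col1a1, which osteoblasts make, and Cxcl12 stood beside them at 237 and 219 CPM in the control pool and at 0.296 and 6.22 CPM in the mutant pool, and their part in these 4 differences was not tested.

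In Runx2-zero cartilage at 3 months, 3 of 6 members passed 2-fold, beside 8.13% of genes. Nlgn1 was 24.8-fold higher in the library labelled mutant (11.9 to 59.9), with most UMIs from 1 cell, Trpm3 5.43-fold on 16 against 9 UMIs and Slit3 3.05-fold (2.20 to 4.23). In bone/stroma 6 of 7 members passed 2-fold, beside 36.1% of genes, with Slit2, Slit3, Robo1, Robo2 and Unc5c lower and Dscam higher in the library labelled mutant. After cleaning, 3 of 6 did, beside 23.0% of genes. Slit2 was then 1.22-fold higher (1.07 to 1.39) in place of 3.95-fold lower (3.46 to 4.51), Slit3 1.90-fold higher (1.62 to 2.23) in place of 2.55-fold lower (2.18 to 2.99), and Nlgn1 2.80-fold higher (2.17 to 3.61) in place of 1.72-fold lower (1.34 to 2.22). Robo2 kept its direction, at 4.36-fold lower (2.75 to 7.32), and so did Unc5c, at 11.4-fold lower (3.08 to 95.6) on 2 UMIs. The cleaned pools differ in their share of Cxcl12-rich cells, as given for Robo2 above.

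At 12-16 months, 3 of 6 members passed 2-fold in Runx2-positive cartilage, beside 13% of genes. Tenm2 was again higher in the library labelled mutant, 6.63-fold (4.22 to 11.0), with 303 against 20 UMIs. Robo1 was 2.56-fold higher (1.14 to 6.77) on 41 against 7 UMIs and Robo2 13.6-fold higher (2.26 to 553) on 31 against 1. Dab1, Unc5c and Trpm3 stood at 0.860 (0.620 to 1.205), 1.03 (0.975 to 1.09) and 1.66 (1.196 to 2.34) times the control level. In Runx2-zero cartilage 0 of 3 members passed, beside 8.75% of genes. In bone/stroma 1 of 6 passed, beside 17.8% of genes and 20.1% after cleaning. That member was Robo2, 2.79-fold lower in the library labelled mutant (2.34 to 3.33) and 2.84-fold lower (2.39 to 3.39) after cleaning, while Slit2 stood at 1.01 times the control level (0.932 to 1.11). At this age too the cleaned pools differ in their share of Cxcl12-rich cells.

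**Figure D4:**
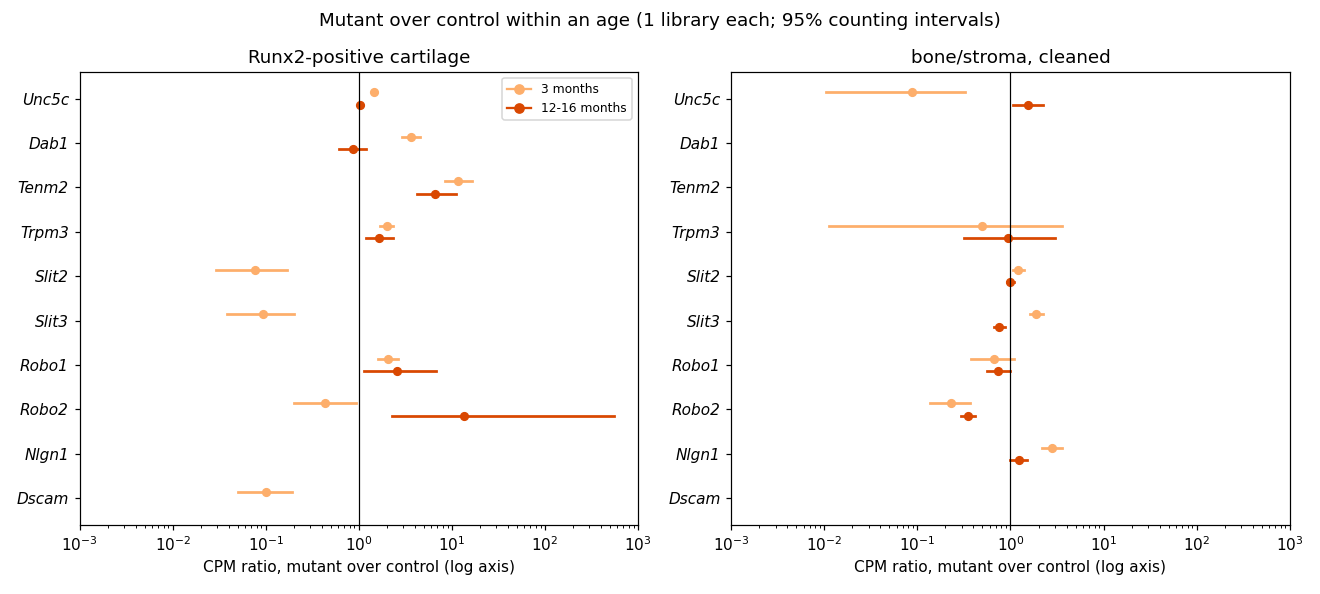
CPM in the library labelled mutant over CPM in the library labelled control within an age (log axis, 1 library each), per gene, in Runx2-positive cartilage and in cleaned bone/stroma, with 95% counting intervals and colour for age, and no point where both pools held at most 3 UMIs. Tenm2 lies at 11.7 and 6.63 in Runx2-positive cartilage, and Robo2 lies below 1 at both ages in cleaned bone/stroma. The cleaned pools labelled control and mutant differ in their share of Cxcl12-rich cells.

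With age, 5 of 8 members passed 2-fold in Runx2-positive cartilage between the 12-16-month and 3-month libraries labelled control, beside 13.5% of genes. Unc5c was 2.47-fold higher (2.31 to 2.64) in the older library, whereas Robo1 was 3.99-fold lower (1.85 to 10.2), Slit3 6.98-fold lower (1.82 to 59.5), Slit2 at least 4.99-fold lower and Dscam at least 6.43-fold lower. In Runx2-zero cartilage 3 of 5 passed, beside 11.0% of genes: Dscam was 4.44-fold lower (2.91 to 7.12), Nlgn1 13.8-fold higher (5.18 to 38.9) on 12 against 8 UMIs, and Unc5c 2.51-fold higher (1.05 to 5.35). In bone/stroma 1 of 6 passed, beside 12.0% of genes, with Unc5c 2.07-fold lower (1.45 to 3.01), and after cleaning 0 of 6, beside 13.4% of genes. Slit2 stood at 1.08 times (0.984 to 1.18) and Slit3 at 1.02 times (0.893 to 1.16) the 3-month level in cleaned control cells.

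Between the libraries labelled mutant, 3 of 6 members passed 2-fold in Runx2-positive cartilage, beside 15.1% of genes. Dab1 was 2.45-fold (2.00 to 3.01) and Robo1 3.20-fold (2.31 to 4.53) lower and Robo2 5.52-fold higher (2.89 to 11.0) at 12-16 months, and Unc5c was 1.76-fold higher (1.69 to 1.83) without passing. In Runx2-zero cartilage 3 of 5 passed, beside 8.07% of genes, with Dscam 3.70-fold (2.54 to 5.54), Robo1 5.49-fold (1.95 to 21.4) and Nlgn1 2.03-fold (1.23 to 3.45) lower. In bone/stroma 6 of 7 passed, beside 34.9% of genes, and in the cleaned cells 4 of 6, beside 13.4% of genes. In those cleaned cells Slit3 was 2.46-fold (2.09 to 2.89) and Nlgn1 2.13-fold (1.68 to 2.69) lower at 12-16 months, Robo2 was 2.04-fold higher (1.27 to 3.46), Unc5c 9.43-fold higher (2.54 to 79.0), and Slit2 stood at 0.878 times the 3-month level (0.773 to 1.00). The comparisons of age and of genotype share libraries, so their folds are not independent of each other.

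Gene length moved with the gates and, in some gates, with genotype and age. Among genes that span at least 300 kb, the median log2 ratio of Runx2-positive over Runx2-zero cartilage was 0.74, 1.07, 0.72 and 1.00 by library, against 0.08, 0.18, 0.05 and 0.19 over all genes with enough counts. For bone/stroma over Runx2-zero cartilage it was 0.71, 0.67, 0.89 and 1.28, against 0.05, 0.44, −0.0042 and 0.35. Such genes held 5.26%, 7.34%, 5.99% and 5.86% of the UMIs of Runx2-positive cartilage and 3.58%, 4.44%, 3.54% and 3.34% of those of Runx2-zero cartilage. Within Runx2-positive cartilage the median of such genes was 0.37 for the 3-month mutant over the 3-month control, against 0.04 over all genes, and −0.22 for the 12-16-month over the 3-month mutant, against 0.01. In the other 2 comparisons of that gate it was 0.07 and 0.13, against 0.02 and 0.03, and over all 3 gates it ran from −0.22 to 0.66. The gate ratios of the 4 genes of Runx2-positive cartilage were larger than these medians in every library, which the choice of the genes on these contrasts fixed in advance. The part of length in these ratios was not tested.

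Around the 10 genes, 121 other genes were described. They came from the netrin, Slit and Robo, Reelin, teneurin and latrophilin, neuroligin and neurexin, Dscam, TRPM, semaphorin and ephrin systems. Of these 121 genes 70 had enough counts for a test across the 12 pools. None of the 10 genes belongs to the semaphorin or ephrin systems, which gave 24 and 11 of the 70. The test was edgeR's quasi-likelihood test on sums per gate and library with library as a block and Benjamini-Hochberg adjustment over 11744 genes. All 3 gates were fitted together, so its spread is what gate and library leave over in the 12 pools. Each contrast thus also carries the spread of the third gate. The 4 libraries are 4 conditions, so differences of genotype and age between gates are part of that spread. Between the cartilage gates 20 of 70 were higher and 6 lower in Runx2-positive cells, beside 9.95% and 8.17% of all genes, with a median log2 fold change of 0.32 against 0.0062 over all genes. Genes that span at least 300 kb had median log2 ratios from 0.72 to 1.07 by library between these gates. The part of gene length in the family counts given here and below was not tested. Without the 3-month control 12 were higher, and without the 12-16-month mutant 13 were higher and 3 lower.

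**Figure D5:**
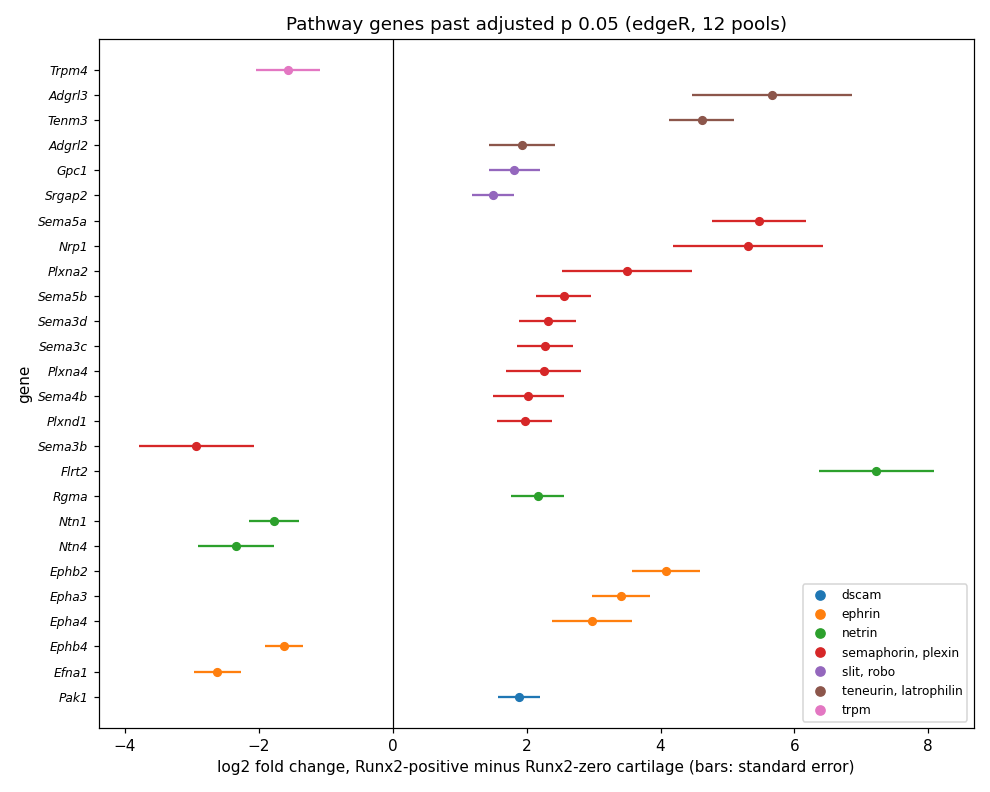
Log2 fold change of Runx2-positive minus Runx2-zero cartilage (horizontal, with bars of 1 standard error) for the 26 family genes past an adjusted p of 0.05 in edgeR's quasi-likelihood test, coloured by gene family. Flrt2 lies farthest right at 7.22 and Sema3b farthest left at −2.93.

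Relatives of the members were among the genes higher in Runx2-positive cartilage. Tenm3, a paralog of Tenm2, was at 384.5, 577, 533 and 385 CPM there and at 16.1, 31.5, 7.17 and 16.0 CPM in Runx2-zero cartilage (log2 fold change 4.61, SE 0.48, adjusted p = 0.000304 by edgeR's quasi-likelihood test). Adgrl3 and Adgrl2, latrophilins that bind teneurins, rose by 5.66 (SE 1.2) and 1.93 (SE 0.49) on the log2 scale. Flrt2, which binds both latrophilins and Unc5 receptors, was at 45.7, 82.3, 34.3 and 14.2 CPM and had 1, 0, 1 and 0 UMIs in Runx2-zero cartilage, so that its fitted log2 fold change of 7.22 (SE 0.86) depends on the small count that the fit adds. Rgma, a ligand of the netrin receptor neogenin, rose by 2.16 (SE 0.40), from 26.5, 31.9, 51.6 and 27.8 CPM in Runx2-zero cartilage to 87.1, 369.6, 128 and 159.8 CPM in Runx2-positive cartilage.

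The netrins Ntn4 and Ntn1 were lower in Runx2-positive cartilage. Ntn4 was at 183, 526, 384 and 457 CPM in Runx2-zero cartilage and at 96.7, 42.6, 192 and 46.7 CPM in Runx2-positive cartilage (log2 fold change −2.34, SE 0.57, adjusted p = 0.0188 by edgeR), and Ntn1 fell by 1.78 on the log2 scale (SE 0.37). Dcc, the other classical netrin receptor, had at most 3 UMIs in any pool, and Unc5b, a paralog of Unc5c, did not pass between the cartilage gates (log2 fold change 0.56, SE 0.67). Without the 12-16-month mutant neither Ntn4 nor Ntn1 passed the test. Of the 4 tested relatives of the Slit and Robo system, Gpc1, a heparan sulfate carrier, and Srgap2, a GTPase-activating protein that acts below Robo, rose by 1.82 (SE 0.38) and 1.503 (SE 0.31).

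Guidance genes of other families also differed between the cartilage gates. Of 24 tested semaphorins, plexins and neuropilins 9 were higher and 1 lower, among them Sema5a, which rose by 5.47 (SE 0.70), Nrp1 by 5.31 (SE 1.12), Plxna2 by 3.50 (SE 0.98), Sema5b by 2.55 (SE 0.42), Sema3d by 2.31 (SE 0.43), Sema3c by 2.27 (SE 0.42), Plxna4 by 2.26 (SE 0.56), Sema4b by 2.02 (SE 0.53) and Plxnd1 by 1.97 (SE 0.41), while Sema3b fell by 2.93 (SE 0.86). Of 11 ephrins and Eph receptors 3 were higher and 2 lower: Ephb2 rose by 4.08 (SE 0.50), Epha3 by 3.41 (SE 0.43) and Epha4 by 2.97 (SE 0.59), whereas the ephrin Efna1 fell by 2.62 (SE 0.35) and Ephb4 by 1.62 (SE 0.28). Pak1, a kinase that acts below Dscam, rose by 1.89 (SE 0.31) and the channel gene Trpm4 fell by 1.56 (SE 0.48). The 3 tested genes of the neuroligin and neurexin list and the 7 of the Reelin list gave no call between the cartilage gates by edgeR. Sema3b lost its call whichever library was left out, and Sema3b and Trpm4 also lost theirs with doublets removed. Trpm4, Plxna2 and Sema4b lost theirs in each leave-out but that of the 3-month mutant, and Adgrl2 in each but that of the 12-16-month mutant. Without the 3-month control Adgrl3, Nrp1, Plxna4, Epha4 and Plxnd1 were no longer called, and without the 12-16-month mutant Epha4, Plxnd1, Gpc1, Srgap2 and Sema3d.

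In bone/stroma 27 of the 70 genes were higher and 15 lower than in Runx2-zero cartilage, beside 17.2% and 17.9% of all genes, with a median log2 fold change of 0.64 against 0.014. The 4 tested genes of the Slit and Robo list were all higher: Srgap1, which acts below Robo, by 5.80 (SE 0.58), Srgap3 by 3.17 (SE 0.36), Gpc1 by 2.24 (SE 0.39) and Srgap2 by 1.73 (SE 0.32) on the log2 scale. The largest rises were those of Nrp1 (10.05, SE 0.86), Flrt2 (9.01, SE 0.82), Tenm4 (8.12, SE 0.60) and Sema7a (7.37, SE 0.65), and the largest falls those of Trpm6 (−7.70, SE 1.12), Ntn4 (−5.09, SE 0.66), Sema3e (−4.99, SE 1.49) and Sema6a (−3.47, SE 0.33). Nrp1, Flrt2 and Tenm4 had at most 3 UMIs in each Runx2-zero pool and Trpm6 had 0 in each bone/stroma pool, so these fitted values depend on the count that the fit adds. Sema3e was not called without the 12-16-month mutant. With cleaned bone/stroma 36 were higher and 13 lower.

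Runx2-positive cartilage differed from bone/stroma in 41 of the 70 genes, with 16 higher and 25 lower, beside 15.0% and 12.9% of all genes, and with a median log2 fold change of −0.30 against 0.0087. Teneurins parted between these gates, as Tenm3 was higher in Runx2-positive cartilage by 3.41 (SE 0.46) and Tenm4 lower by 6.53 (SE 0.51). The largest rises were those of Trpm6 (6.73, SE 1.23), Sema3c (5.69, SE 0.59), Sema5b (5.64, SE 0.67) and Rgma (4.71, SE 0.50), and after Tenm4 the largest falls were those of Sema7a (−5.82, SE 0.57), Plxnc1 (−5.78, SE 0.67) and Nrp2 (−5.01, SE 0.56). The number lower was 16 without the 12-16-month control and 15 without the 12-16-month mutant, and 27 with cleaned bone/stroma.

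Over the 12 pools of gate and library, the genes whose levels ran most closely with each member were ranked by Pearson's r of log2(CPM + 10) among 11318 genes, as description, since pools share libraries and gates. For Unc5c these were Epha3 (r = 0.980) and Panx3 (0.973), for Dab1 Smim31 (0.990) and Gm30655 (0.990), for Tenm2 Gm48155 (0.990) and Kcnd2 (0.981), and for Trpm3 Fras1 (0.976) and Serinc5 (0.974). For Slit2 they were Cdh2 (0.999) and Adamts2 (0.997), for Slit3 Limch1 (0.977) and Antxr1 (0.977), for Robo2 9130024F11Rik (0.978) and Galnt3 (0.977), for Nlgn1 Esyt1 (0.973) and Flna (0.969), for Robo1 Srpx (0.948) and C1qtnf6 (0.947), and for Dscam B230206L02Rik (0.930) and Hs6st1 (0.897). Among the members, Dab1 and Trpm3 ran together (r = 0.968), as did Slit3 and Nlgn1 (0.968) and Slit2 and Slit3 (0.966), whereas Dscam had r between −0.61 and −0.26 with the other 9.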

How the data were processed

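The authors sorted tdTom+ cells, made 10x 3′ v3.1 libraries and counted them with Cell Ranger on mm10 with the tdTomato sequence added. Per the file headers this was Cell Ranger 8.0.0, and the deposited values are raw UMI counts per gene and cell. Whether intronic reads were counted is not given in the sources used here. The SoupX correction that the authors applied later is not in these counts and was not repeated.

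Here cells were filtered and gated on raw counts, and counts were summed per gate and library into 12 pools, with from 2154537 to 9429264 UMIs in passing cells per library. Doublets were kept in the main values, and an alternative removed those called by Scrublet (scanpy 1.11.5, expected 6%). Intervals are 95% exact Poisson (levels), conditional binomial (folds) and Clopper-Pearson (shares), and cover counting error only. A pool at 0 was set to 3 counts for a bound. Folds between conditions were counted past 2-fold among genes with at least 20 UMIs over both pools, with no test, since each condition is 1 library. Genes of the pathway lists were tested across all genes with edgeR 4.0.16 (TMM, quasi-likelihood, at least 10 UMIs in at least 3 pools, library as block, Benjamini-Hochberg adjusted p under 0.05), a step tested on simulated data. The fits ran in R 4.3.3, with DESeq2 1.42.0 as an alternative, and all else ran in Python 3.11.15 with scipy 1.17.1. P-values measure the spread that gate and library leave over in the 12 pools. Mice in the 4 libraries are not counted in the labels, and pools of 1 library are not independent.

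The genes named are the 10 members, each listed gene called between the cartilage gates, the 4 with the largest fold in each direction in the other contrasts, and the 2 genes most like each member. Reln, Vldlr, Lrp8, Dcc, Slit1, Unc5b, Srgap1, Srgap3 and the bone/stroma values of Gpc1, Srgap2 and Tenm3 fall outside that rule and were chosen after their values were seen. The members and lists were chosen with earlier results of these data known. The cleaning of bone/stroma and the values without the top cell of each pool or side of a split were added after seeing the data. Alternatives changed normalization, filters, gates, depth, fold and the library left out.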

Additional observations from a re-analysis of the deposited data

Results flagged for a closer look

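The ratio of the library labelled mutant to the library labelled control lay on opposite sides of 1 at the 2 ages, with counting intervals on opposite sides as well, for 6 pairs of gene and cell set. Each ratio compares 1 library with 1 library, and the difference between the ages was not tested. Robo1 over all cells was at 2.0205 at 3 months and 0.56067 at 12-16 months. The mix of cells differed between these libraries, with Runx2-positive cartilage at 10.7% and 33.1% of passing cells in the control and mutant at 3 months and at 14.1% and 15.4% at 12-16 months, and within that gate Robo1 was at 2.05 and 2.56. Robo2 in Runx2-positive cartilage was at 0.43495 on 15 and 17 UMIs and at 13.567 on 31 and 1 UMIs. Unc5c in bone/stroma was at 0.018135 and 1.5717, and at 0.087518 and 1.5415 in cleaned bone/stroma, where the 3-month library labelled mutant held 2 Unc5c UMIs. Nlgn1 in bone/stroma was at 0.58075 and 1.2438. The first of these values comes from the pool with 23 leukocytes among 39 cells, and in cleaned bone/stroma Nlgn1 was at 2.80 and 1.22. Slit3 in cleaned bone/stroma was at 1.9014 and 0.76134.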

How the results depend on the processing

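Of 420 alternative values of the members' log2 ratios between gates 410 moved by less than the spread between libraries and 10 moved by more. The values with 1 library left out are among the 410. Leaving out 1 library cannot move a mean by as much as that spread, so their place there was fixed in advance. A change of direction was counted only among values that moved by more, and only for members called past 2-fold in every library in that contrast. Under that rule 0 were counted, and smaller changes of sign were not looked for. Of 90 alternative counts of members 83 stayed within 1.5 times. Dscam, the 1 member higher in Runx2-zero than in Runx2-positive cartilage, was lost (0 left) with cells thinned to 5000 UMIs and with cells of 8000 to 25000 UMIs. Against bone/stroma it was lost (0 left) under the same settings and with the mean of CPM over cells. Leaving out 1 library gave from 1 to 3 members for the first of these counts (3 without the 3-month control, with Slit3 and Nlgn1) and from 4 to 7 for bone/stroma over Runx2-zero cartilage (7 without the 3-month mutant). Pairs of member and gate past 2-fold were 4 of 15 between the 12-16-month libraries, 2 of 11 with at least 50 UMIs and 7 of 30 with no filter. Between the control libraries they were 9 of 19, and 5 of 15 with at least 50 UMIs. Among pathway genes the 20 higher in Runx2-positive than in Runx2-zero cartilage became 12 to 20 with 1 library left out, the 6 lower became 3 to 6, and 11 with no filter on counts, and the 25 lower than in bone/stroma became 15 to 26. With cleaned bone/stroma, an alternative chosen after seeing the data, 9 were lower in Runx2-positive than in Runx2-zero cartilage, and 9 also with only the 2 gates compared. Of 441 alternative values of named pathway genes 31 lost the call and 0 changed direction. For these changes the cause was not tested. Of 20 alternative shares of cells 15 moved by more than the counting interval allows, all upward, such as Robo1 in bone/stroma from 21.0% to 31.9% at 5000 UMIs and 43.3% without thinning. The gate test has library as a block, and no replicate block was fitted for genotype or age, where each condition has 1 library. Few UMIs stand behind the values of Dscam at 12-16 months, Robo2 and Nlgn1 in cartilage, and Robo1 in cartilage of the 12-16-month control. The part of depth in this was not tested.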
